A study of Mus musculus with 21 samples.

Results

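The genes described here are 10 RNAs that mouse mitochondrial DNA encodes: the rRNAs mt-Rnr1 and mt-Rnr2 and the mRNAs mt-Nd1, mt-Nd2, mt-Nd4, mt-Cytb, mt-Co1, mt-Co2, mt-Co3 and mt-Atp6. They were chosen as a list of gene symbols, matched to the Ensembl identifiers of the files, and all 10 were found among the 9657 genes measured. A further 26 mitochondrially encoded genes were in the files and serve as neighbours for comparison. The libraries came from primary mouse hepatocytes, liver cells of wild-type genotype kept in culture, which received PBS alone or an RNAi agent against Ttr, the gene of the thyroid hormone carrier transthyretin. The agents carry the names TTR-1236, TTR-1186 and Reference 4. Doses were 0.2 and 2 µM for every agent, all cells were sampled on Day 1, and each of the 7 groups (6 agent and dose groups and PBS) had 3 libraries, 21 in all. Whether the 3 libraries of a group stem from different animals or dishes is not in the labels. The p-values therefore take in only the scatter among these 21 samples, and this scatter may be technical. Levels are CPM, a gene's reads per 1000000 reads in the 9657 genes.

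Mitochondrial DNA is a small circular genome that is transcribed from both strands into long precursors, which are cut apart mainly at the tRNAs that lie between the other genes. The rRNAs build the mitochondrial ribosome, and the mRNAs encode subunits of the respiratory chain complexes and of ATP synthase, so that hepatocytes, cells rich in mitochondria, hold them in large amounts. The mature mRNAs carry a short poly(A) tail that completes the stop codon of some of them, while the rRNAs carry only very short tails. QuantSeq, the method used, starts its reads from poly(A), so a level here depends on the tail or on a run of A within the RNA as well as on the amount of RNA.

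The ends of the 10 RNAs are where a 3′ method is meant to count. The 30 last annotated bases of both rRNAs and of the mRNAs discussed most are given 5′ to 3′ from GRCm38, the assembly of mm10. A closing run of A is in capitals, and where the RNAs end in these cells was not measured. All these genes lie on the plus strand of the mitochondrial chromosome.
mt-Rnr1, chrM:995-1024: aagcatactggaaagtgtgcttggaataat
mt-Rnr2, chrM:2646-2675: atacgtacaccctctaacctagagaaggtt
mt-Nd2, chrM:4922-4951: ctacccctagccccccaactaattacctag
mt-Co1, chrM:6843-6872: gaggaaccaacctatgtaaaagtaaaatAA
mt-Co2, chrM:7667-7696: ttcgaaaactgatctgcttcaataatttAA
mt-Atp6, chrM:8578-8607: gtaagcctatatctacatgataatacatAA
mt-Co3, chrM:9361-9390: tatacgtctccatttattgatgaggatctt
mt-Cytb, chrM:15259-15288: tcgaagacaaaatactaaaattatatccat

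Some of these RNAs also hold runs of A inside them. The longest runs of 3 members are shown in capitals with the 10 bases on either side, because runs of A are sites from which such a method can also prime.
mt-Nd2, chrM:4042-4069: actaatcaacAAAAAAAAcccacgatca
mt-Rnr2, chrM:1478-1504: taaacttgctAAAAAAAcaacaaaatc
mt-Nd4, chrM:10408-10434: aaaaccacctAAAAAAAgataataacg
The motif AAAAAA was searched on the sense strand only. mt-Rnr2 held 4 separate runs of at least 6 A, mt-Nd2 held 3, mt-Nd4 held 2, and mt-Co1 and mt-Nd1 held 1 each. mt-Rnr1, mt-Co2, mt-Co3, mt-Atp6 and mt-Cytb held 0. The same motif was present in 29.4% of 68844 nuclear transcripts of 500 to 2000 bases. A made up 37.8% of mt-Rnr1, 38.2% of mt-Rnr2 and 36.9% of mt-Nd2, the most A-rich of the 10 members. The positions of the reads within a gene are not in the files, and only the ratios to partial nuclear copies, given below, bear on them. The part of these runs in any result was not tested.

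The libraries held 14158740 to 37410773 reads over the measured genes. Ttr, the target of the agents, was at 2168 to 2336 CPM in the PBS libraries and at 3.19 to 27.1 CPM in the treated libraries, which separates PBS from treated libraries. The doses of an agent overlapped in Ttr, as did the agents at equal dose, so it does not check the agent or the dose. Across both, Reference 4 at 2 µM (12.9 to 27.1 CPM) lay above TTR-1236 (5.25 to 10.6 CPM) and TTR-1186 (3.19 to 9.62 CPM) at 0.2 µM. Of 15 hepatocyte genes 12 were in the files, with a summed level of 19720 to 32830 CPM. Markers of other liver cells were sparse: 2 of 10 Kupffer cell and macrophage genes summed to 77.2 to 184 CPM, 2 of 9 stellate cell and fibroblast genes to 9.91 to 49.6 CPM, 2 of 5 cholangiocyte genes to 24.5 to 48.2 CPM and 1 of 8 endothelial genes to 0.179 to 10.6 CPM, and 0 of 6 lymphocyte genes were listed. In such bulk samples fewer cells of a type and less RNA per cell cannot be told apart.

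The rRNAs varied more than the mRNAs between groups, with a highest group mean 6.75 times the lowest for mt-Rnr1 and 6.73 times for mt-Rnr2, against 1.22 to 1.9 times for the mRNAs. Pooled over the groups, the SD within a group on the log2 scale was 0.784 and 0.721 for the rRNAs and 0.126 to 0.416 for the mRNAs. In the TTR-1236 groups this did not hold, since at 2 µM the coefficient of variation was 24.7% and 29.8% for mt-Rnr1 and mt-Rnr2 and 46.8% for mt-Co2, and at 0.2 µM it was 14.4% and 8.05% beside 19.4% for mt-Co1. mt-Rnr2, the rRNA of the large mitochondrial ribosomal subunit (chrM:1094-2675), was at 25585, 22289 and 6705 CPM in the PBS libraries. It was at 14481, 12489 and 14327 CPM with TTR-1236 at 0.2 µM and at 3904, 3613 and 2120 CPM at 2 µM. With Reference 4 it was at 27482, 19118 and 17016 CPM at 0.2 µM and at 8957, 6609 and 2983 CPM at 2 µM. The 2 µM libraries of both agents lay below all libraries of the 0.2 µM dose of the same agent. With TTR-1186 mt-Rnr2 was at 29844, 12361 and 22692 CPM at 0.2 µM and at 15742, 5036 and 18323 CPM at 2 µM. These last groups overlapped, and PBS replicate 3 and TTR-1186 2 µM replicate 2 stood far below the other libraries of their groups. TTR-1186 0.2 µM replicate 2, at 12361 CPM, was also well below the others of its group.

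mt-Rnr1, the rRNA of the small subunit (chrM:70-1024), gave the same picture. It was at 6986, 4675 and 1264 CPM with PBS. With TTR-1236 it was at 2845, 2185 and 2835 CPM at 0.2 µM and at 962, 1100 and 661 CPM at 2 µM. With Reference 4 it was at 7503, 5529 and 4298 CPM at 0.2 µM and at 2026, 1584 and 843 CPM at 2 µM. Again no 2 µM library of these agents reached the 0.2 µM libraries. With TTR-1186 the levels were 7411, 2499 and 8473 CPM at 0.2 µM and 3772, 1187 and 3773 CPM at 2 µM, which overlapped. Over the 21 libraries the highest level was 12.8 times the lowest for mt-Rnr1 and 14.1 times for mt-Rnr2. Ordered by group mean, both ran from TTR-1186 at 0.2 µM, with 6128 and 21632 CPM, to TTR-1236 at 2 µM, with 908 and 3213 CPM. Neighbours in that order overlapped, except TTR-1236 at 0.2 µM and Reference 4 at 2 µM for mt-Rnr1.

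**Figure D1:**
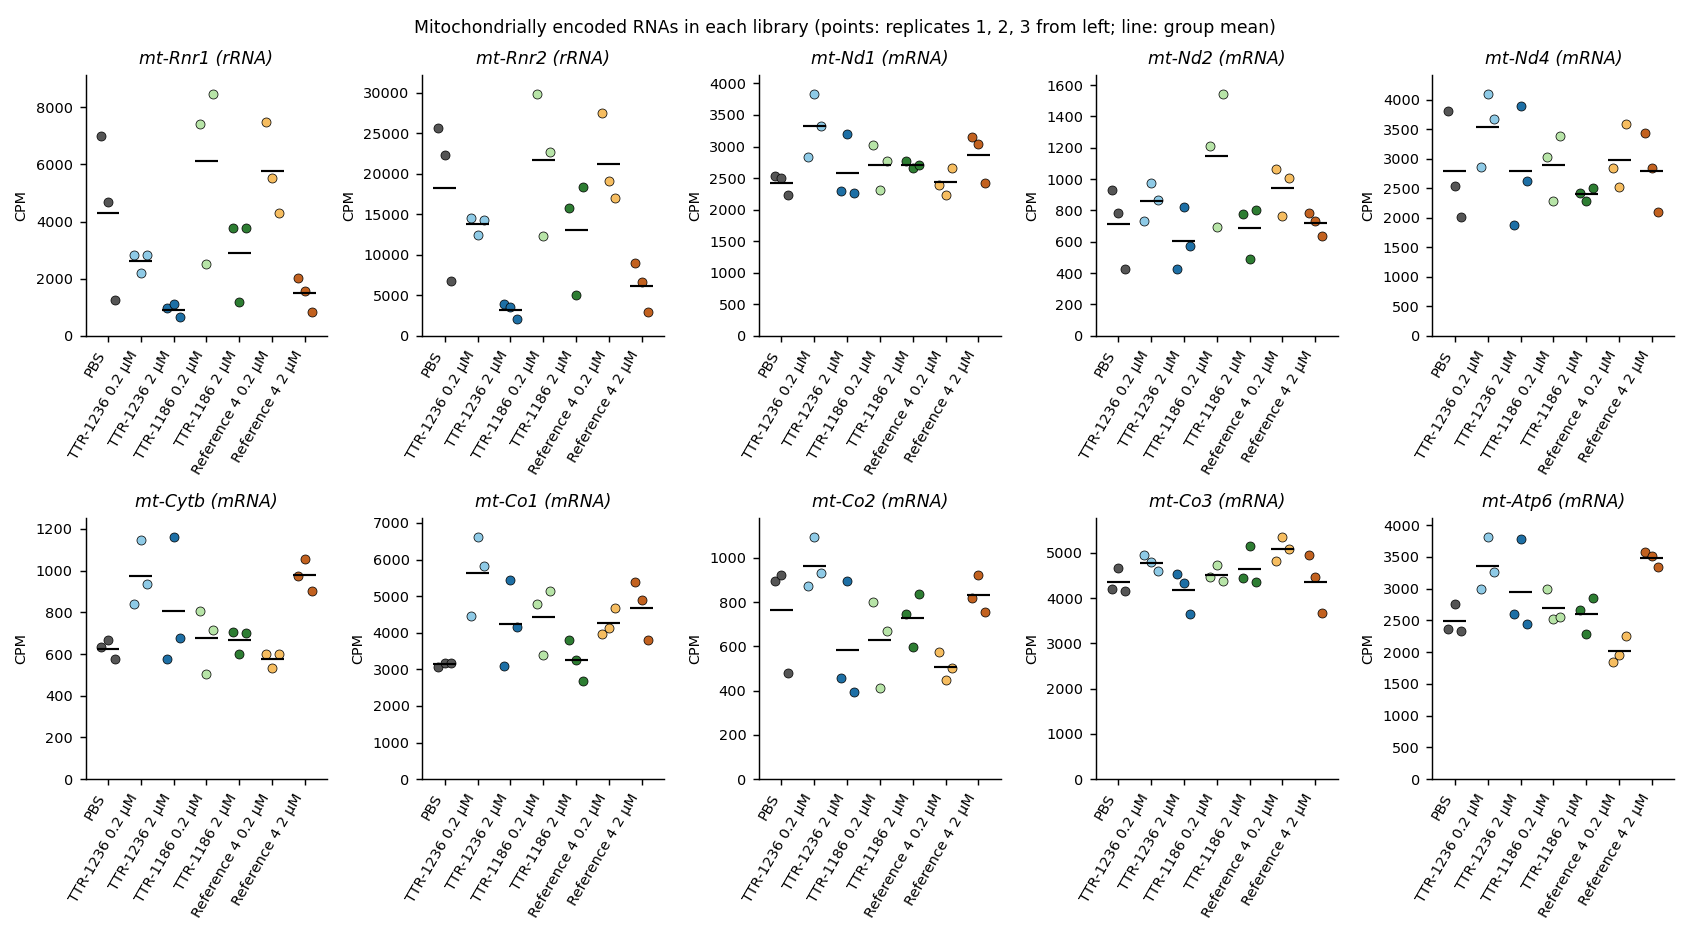
Level in CPM of each of the 10 RNAs, with 1 panel per gene and an axis that starts at 0; points are the 3 libraries of a group and lines the group means. In mt-Rnr1 and mt-Rnr2 the libraries of TTR-1236 and Reference 4 at 2 µM sit below those of 0.2 µM, while mt-Co3 stays between 3660 and 5350 CPM.

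Among the mRNAs of NADH dehydrogenase, complex I, mt-Nd2 (chrM:3914-4951) varied most, by 3.63 times over the libraries. It was at 928, 782 and 426 CPM with PBS, with the lowest level in replicate 3, as for the rRNAs. It was at 1210, 692 and 1544 CPM with TTR-1186 at 0.2 µM and at 777, 490 and 803 CPM at 2 µM. mt-Nd1 (chrM:2751-3707) ranged from 2235 to 3834 CPM and mt-Nd4 (chrM:10167-11544) from 1882 to 4099 CPM over all libraries. Both had their highest group mean with TTR-1236 at 0.2 µM, where mt-Nd1 was at 3329 ± 501 and mt-Nd4 at 3544 ± 629 CPM (SD, n = 3). In both genes every group overlapped its neighbour in the order of means.

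mt-Cytb (chrM:14145-15288) encodes cytochrome b, the mitochondrially encoded subunit of complex III. With Reference 4 it was at 602, 531 and 599 CPM at 0.2 µM and at 975, 1055 and 901 CPM at 2 µM, with no overlap. With PBS it was at 632, 669 and 575 CPM. With TTR-1236 it was at 839, 1147 and 937 CPM at 0.2 µM and at 574, 1160 and 678 CPM at 2 µM, and the 0.2 µM libraries lay above all PBS libraries.

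mt-Atp6 (chrM:7927-8607), a subunit of the proton channel of ATP synthase, followed the same order of groups as mt-Cytb. With Reference 4 it was at 1852, 1958 and 2258 CPM at 0.2 µM and at 3569, 3509 and 3346 CPM at 2 µM. With PBS it was at 2369, 2764 and 2327 CPM, between these groups and apart from both. With TTR-1236 it was at 2998, 3810 and 3258 CPM at 0.2 µM, and at 2607, 3788 and 2450 CPM at 2 µM.

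mt-Co1, mt-Co2 and mt-Co3 encode the core subunits of cytochrome c oxidase, complex IV, and did not share a pattern. mt-Co1 (chrM:5328-6872) was at 3066, 3184 and 3164 CPM with PBS, the lowest group mean, and at 4456, 6611 and 5820 CPM with TTR-1236 at 0.2 µM, the highest. mt-Co2 (chrM:7013-7696) was at 574, 446 and 502 CPM with Reference 4 at 0.2 µM and at 818, 923 and 756 CPM at 2 µM. mt-Co2 reached 872, 1093 and 929 CPM with TTR-1236 at 0.2 µM. In the 2 µM group of that agent 1 library differed from the others, with levels of 458, 896 and 395 CPM. mt-Co3 (chrM:8607-9390) moved least of the 10 genes, with group means from 4171 to 5086 CPM and a ratio of highest to lowest library of 1.46.

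Summed over the 8 mRNAs, the share of all CPM ran from 1.54% to 2.64% over the libraries, a narrower range than the 0.278% to 3.73% of the summed rRNA share. The mRNA share was 2.054%, 2.638% and 2.340% with TTR-1236 at 0.2 µM, above all PBS libraries at 1.845%, 1.803% and 1.539%. The rRNA share was 3.26%, 2.70% and 0.797% in the PBS libraries. With TTR-1236 it was 1.64% ± 0.149 at 0.2 µM and 0.412% ± 0.116 at 2 µM (SD, n = 3). With Reference 4 it was 2.70% ± 0.713 at 0.2 µM and 0.767% ± 0.361 at 2 µM. Thus the rRNA share was lower at 2 µM for these agents with no library in common range. With TTR-1186 the means were 2.78% ± 1.16 and 1.59% ± 0.852, and the libraries overlapped.

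The ratio of the mRNA sum to the rRNA sum puts libraries, not genes, side by side. Its group means at 0.2 and 2 µM were 1.45 and 4.76 with TTR-1236, 0.734 and 3.11 with Reference 4, and 0.793 and 1.50 with TTR-1186. With PBS it was 0.567, 0.669 and 1.93, so that PBS replicate 3 lay above every 0.2 µM library. No test was made of these sums. The ratio of mt-Rnr2 to mt-Rnr1 moved less, from 2.68 to 5.72.

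**Figure D2:**
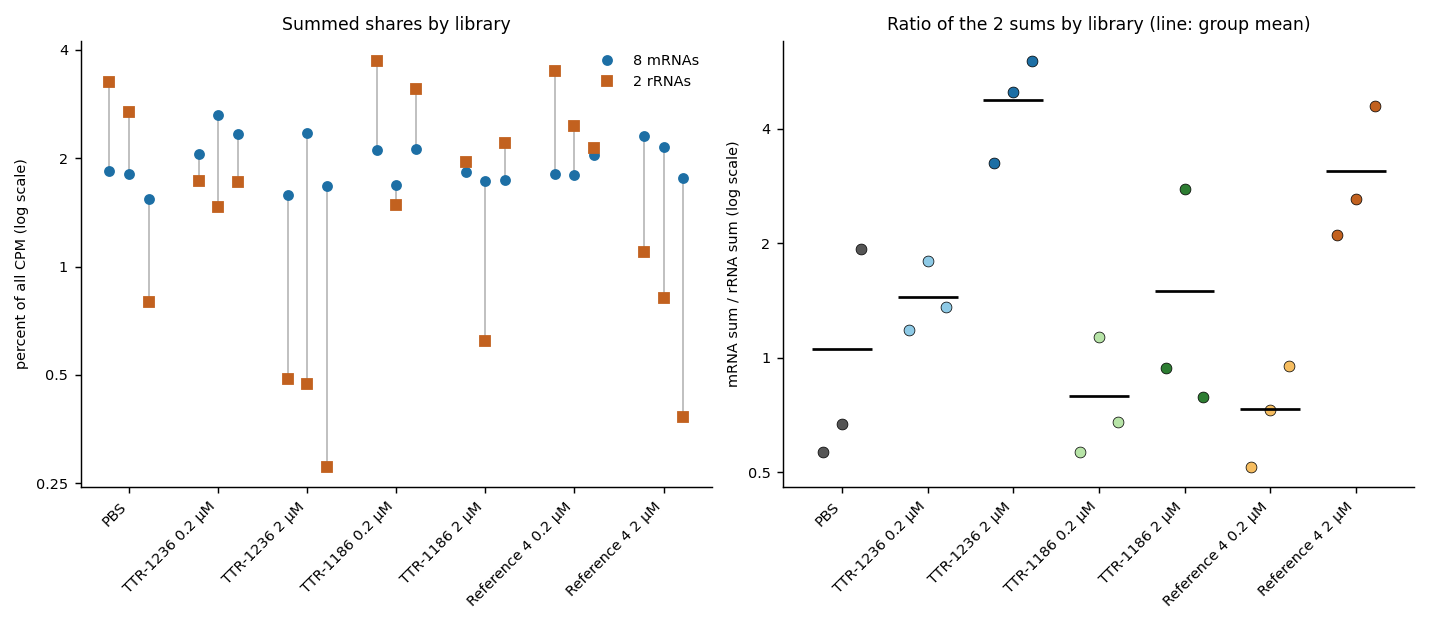
Left, share of all CPM taken by the 8 mRNAs (circles) and the 2 rRNAs (squares) in each library, joined by a line, on a log axis; right, the ratio of the sums, with lines for group means. The mRNA share stays between 1.54% and 2.64% and the rRNA share falls as low as 0.278%.

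Raising the dose of Reference 4 from 0.2 to 2 µM went with a fall of both rRNAs and a rise of mt-Atp6 and mt-Cytb. mt-Rnr1 fell by 2.01 on the log2 scale (SE 0.62, adjusted p = 0.0471) and mt-Rnr2 fell by 1.89 (SE 0.57, adjusted p = 0.0433), by limma with Benjamini-Hochberg adjustment over all genes. mt-Atp6 rose by 0.78 (SE 0.14, adjusted p = 0.00255 by limma) and mt-Cytb by 0.76 (SE 0.20, adjusted p = 0.0160). Fold changes are on the scale of log2(CPM + 1). These 4 members passed the threshold of 0.05, against 12.8% of all genes in this comparison, 6.78% higher and 6.05% lower. The groups did not overlap for 5 members, these and mt-Co2, against 33.9% of all genes. mt-Co2 had a difference of 0.72 (adjusted p = 0.0948 by limma). The other 5 mRNAs did not pass, with differences from -0.38 for mt-Nd2 to 0.23 for mt-Nd1, and the 8 mRNAs had a median of 0.18 beside 0.03 over all genes.

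The call of mt-Atp6 held without any 1 of the 6 libraries, with differences of 0.72 to 0.87. Those of the rRNAs did not: leaving out any library of the comparison but Reference 4 2 µM replicate 1 ended both calls in limma, with adjusted p of 0.0636 to 0.193 for mt-Rnr1 and 0.0641 to 0.198 for mt-Rnr2. The differences then ranged from -2.21 to -1.65 and from -2.03 to -1.43. mt-Cytb lost its call without Reference 4 0.2 µM replicate 2 (0.70, adjusted p = 0.0633 by limma), 2 µM replicate 2 (0.70, 0.0607) or 2 µM replicate 3 (0.81, 0.0545). Fitted on only the 6 libraries compared, mt-Rnr2 missed the threshold (adjusted p = 0.0742 by limma) and mt-Co2 passed it. The Reference 4 libraries held 14158740 to 14971332 reads at 0.2 µM and 18802476 to 32927430 at 2 µM, and the hepatocyte genes summed to 22550 to 27680 and 27280 to 32830 CPM. The part of depth and of these genes in the result was not tested.

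Against PBS, TTR-1236 at 2 µM lowered mt-Rnr2 and left no mRNA of the 8 past the threshold. mt-Rnr2 fell by 2.33 on the log2 scale (SE 0.57, 95% interval -3.56 to -1.11, adjusted p = 0.0297 by limma), the 1 member called, where 6.33% of all genes were called, 1.44% higher and 4.89% lower. mt-Rnr1 had a difference of -1.96 (SE 0.62, adjusted p = 0.0746 by limma). Neither rRNA overlapped PBS, against 19% of all genes. The mRNAs lay between -0.43 for mt-Co2 and 0.39 for mt-Co1, 4 higher and 4 lower, all overlapping PBS.

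These values leaned on the PBS libraries. Without PBS replicate 3 the difference was -2.94 for mt-Rnr2 and -2.69 for mt-Rnr1, and both passed (adjusted p = 0.00335 and 0.00686 by limma). Without PBS replicate 1 or 2, or TTR-1236 2 µM replicate 2 or 3, mt-Rnr2 no longer passed, with -2.44 to -1.98 (adjusted p = 0.0649 to 0.144 by limma). A fit restricted to these 6 libraries did not call it either (adjusted p = 0.0766 by limma). edgeR and DESeq2 on the recovered reads called both rRNAs. The shares of all genes that these tools called are not given, here or below, so their counts of members have no background.

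Within TTR-1236, the higher dose had lower levels of all 10 members, none past the threshold in the fit on all 21 libraries, where 0.135% of all genes were called. mt-Rnr2 differed by -2.15 (SE 0.57, adjusted p = 0.164 by limma) and mt-Rnr1 by -1.55 (SE 0.62, adjusted p = 0.340). Among the mRNAs mt-Co2 differed by -0.81 (SE 0.28, adjusted p = 0.233 by limma), and the median of the 8 was -0.38 beside -0.07 over all genes. Groups did not overlap for both rRNAs and 1 mRNA, mt-Co3, against 21.3% of all genes. At an unadjusted p under 0.05 there were 5 members, DESeq2 called 1, mt-Rnr2, and edgeR called 0. A fit restricted to the 6 libraries of these doses called both rRNAs, with an adjusted p of 0.00263 for mt-Rnr1 and 0.00167 for mt-Rnr2 by limma. The share of all genes called in that fit is not given here.

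With TTR-1186 the doses could not be told apart for any member, where 0% of all genes were called. mt-Rnr1 differed by -1.07 (95% interval -2.40 to 0.26), mt-Rnr2 by -0.84 (-2.07 to 0.38) and mt-Nd2 by -0.69 (-1.32 to -0.06, adjusted p = 0.297 by limma). At an unadjusted p under 0.05 there were 2 members, mt-Nd2 and mt-Co1, and edgeR and DESeq2 called 0. TTR-1186 at 2 µM against PBS also gave 0 members, where 0.0518% of all genes were called and mt-Nd1 was the 1 member that did not overlap PBS (11.6% of all genes), with 0 members at an unadjusted p under 0.05 and 0 by edgeR and by DESeq2. There mt-Rnr1 differed by -0.43 (-1.76 to 0.90) and mt-Rnr2 by -0.47 (-1.69 to 0.76). Without TTR-1186 2 µM replicate 2 these values turned to 0.13 and 0.12, and without PBS replicate 1 mt-Rnr1 stood at 0.08.

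Reference 4 at 2 µM against PBS had 0 members past the threshold in limma, where 2.25% of all genes were called, and 4 at an unadjusted p under 0.05. mt-Atp6 differed by 0.49 (SE 0.14, adjusted p = 0.0663 by limma), mt-Cytb by 0.64 (SE 0.20, adjusted p = 0.0729) and mt-Co1 by 0.56 (SE 0.19, adjusted p = 0.0999). These 3 mRNAs did not overlap PBS, against 19.7% of all genes. mt-Rnr2 differed by -1.48 (SE 0.57) and mt-Rnr1 by -1.31 (SE 0.62), both overlapping PBS. edgeR called 1 or 2 members by the factors used, mt-Cytb alone or with mt-Atp6, and DESeq2 called 4, those 2 with mt-Co1 and mt-Rnr2. Without PBS replicate 3 limma called both rRNAs, at -2.09 for mt-Rnr2 (adjusted p = 0.0258) and -2.04 for mt-Rnr1 (adjusted p = 0.0340).

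**Figure D3:**
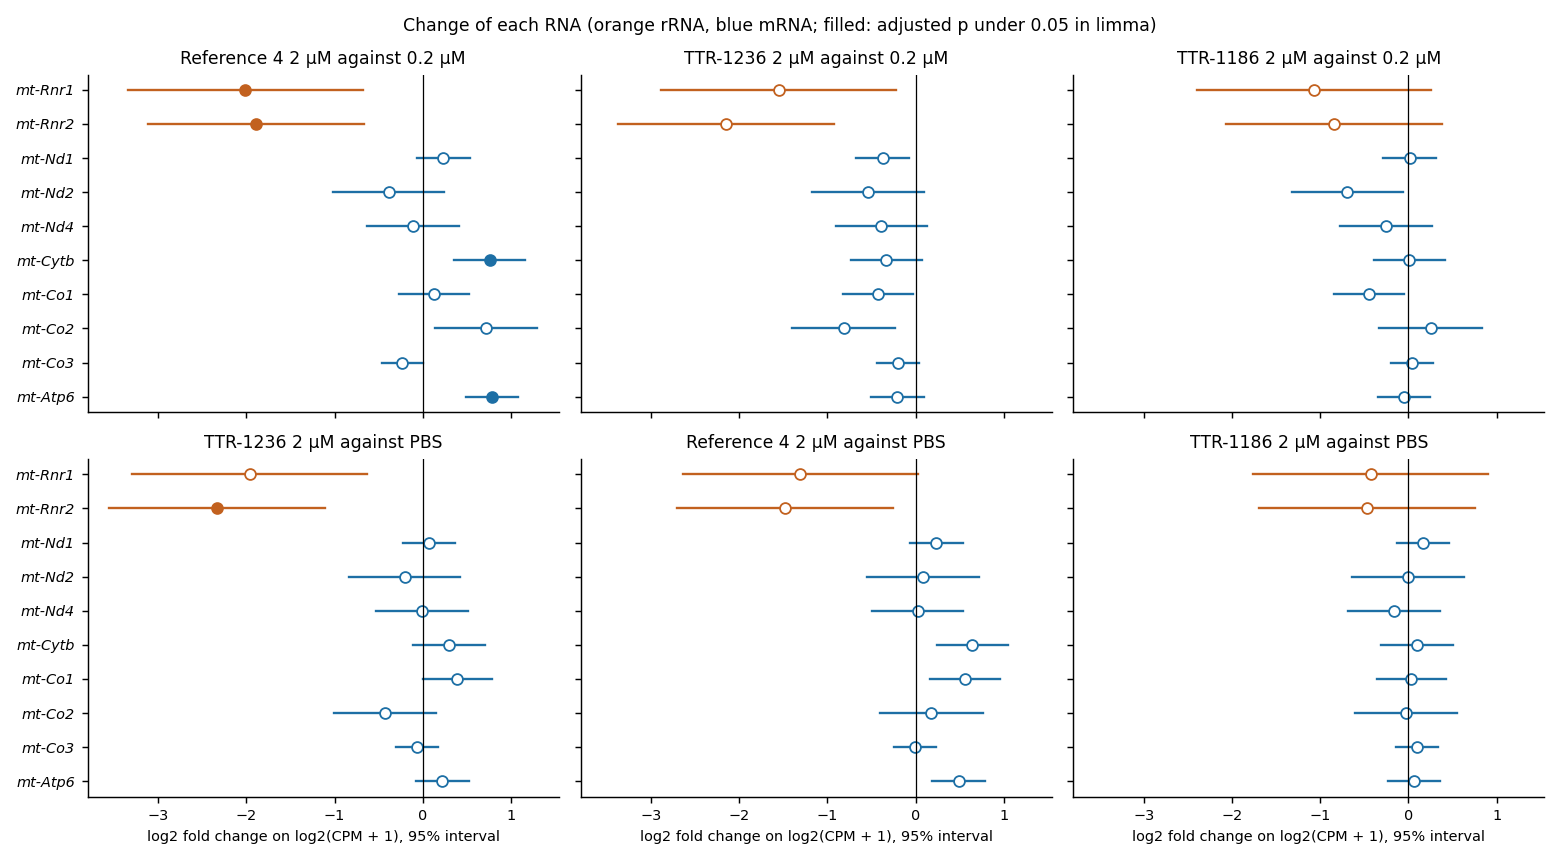
Log2 fold change on log2(CPM + 1) with its 95% interval for each RNA in 6 comparisons, rRNAs in orange and mRNAs in blue, with filled points for an adjusted p under 0.05 in limma. The 4 filled points for Reference 4 between doses are mt-Rnr1, mt-Rnr2, mt-Cytb and mt-Atp6, and mt-Rnr2 is the filled point for TTR-1236 against PBS.

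At 0.2 µM no member differed from PBS past the threshold with any agent in limma or edgeR. With TTR-1236 all 8 mRNAs were above PBS, by a median of 0.41 beside -0.00 over all genes, and 4 did not overlap PBS, against 11.8% of all genes. The most distant was mt-Co1 at 0.82 (SE 0.19, adjusted p = 0.204 by limma), the member that DESeq2 called. Here 0.0207% of all genes were called and 4 members had an unadjusted p under 0.05. With TTR-1186, where 0.0311% of all genes were called, and Reference 4, where 0.166% were, 2 members each had an unadjusted p under 0.05 and DESeq2 called 0. mt-Co1 was among them at 0.48 and 0.44. Groups did not overlap PBS for 1 member with TTR-1186, mt-Co1, against 13.5% of all genes, and for 3 with Reference 4, mt-Co1, mt-Co3 and mt-Atp6, against 14.7%. Averaged over the 6 treated groups mt-Co1 differed from PBS by 0.45 (SE 0.15, adjusted p = 0.182 by limma) and mt-Rnr2 by -0.61 (SE 0.44), with 0 members called, where 0.0725% of all genes were, 1 member at an unadjusted p under 0.05 and 0 by edgeR and DESeq2. All these comparisons share the PBS libraries.

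Agents were also compared with each other at equal dose, in 6 comparisons, and 0 members were called in any by limma on all 21 libraries or by edgeR. At 0.2 µM, where 0% of all genes were called in each comparison, TTR-1236 stood above Reference 4 in mt-Atp6 by 0.73 (SE 0.14, adjusted p = 0.0701 by limma), in mt-Cytb by 0.74 (adjusted p = 0.0800) and in mt-Co2 by 0.93 (adjusted p = 0.122), and DESeq2 called these 3. A limma fit restricted to the 6 libraries of these groups called 5 members, these 3 and both rRNAs. The 0% is of the fit on all 21 libraries, and the share of all genes called in the restricted fit is not given here. At 2 µM TTR-1236 stood below TTR-1186 in mt-Rnr2 by -1.87 (adjusted p = 0.137 by limma) and in mt-Rnr1 by -1.53 (adjusted p = 0.254), where 0.342% of all genes were called, and DESeq2 called both. TTR-1236 and Reference 4 at 2 µM differed in mt-Rnr2 by -0.85 (95% interval -2.08 to 0.37), where 0% of all genes were called. TTR-1186 and Reference 4 at 2 µM differed in mt-Rnr2 by 1.01 (-0.21 to 2.24), where 0.373% were. At an unadjusted p under 0.05 there were 4, 1 and 3 members at 0.2 µM for TTR-1236 against Reference 4, TTR-1186 against Reference 4 and TTR-1236 against TTR-1186, and 1, 3 and 2 at 2 µM. In the same order the groups did not overlap for 6, 2 and 3 members at 0.2 µM, against 24.3%, 9.7% and 17.9% of all genes. At 2 µM they did not overlap for 0, 2 and 2 members, against 8.66%, 18.3% and 18%. With 1 library left out limma called mt-Atp6 between TTR-1236 and Reference 4 at 0.2 µM without Reference 4 0.2 µM replicate 3, and mt-Rnr2 between TTR-1236 and TTR-1186 at 2 µM without TTR-1186 2 µM replicate 2.

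Whether the change with dose differed between agents was tested as an interaction, chosen after seeing the data. It called 0 members and 0% of all genes in limma, and 0 members in edgeR. Between TTR-1236 and Reference 4 the change with dose differed by -0.99 for mt-Atp6 (SE 0.20, adjusted p = 0.0935 by limma), by -1.09 for mt-Cytb (adjusted p = 0.132) and by -1.53 for mt-Co2 (adjusted p = 0.143). mt-Atp6 and mt-Co2 were called by DESeq2. Without TTR-1236 2 µM replicate 2, the library that stood above the others of its group in these mRNAs, limma called all 3. For the rRNAs the differences were 0.46 for mt-Rnr1 (95% interval -1.42 to 2.35) and -0.26 for mt-Rnr2 (-1.99 to 1.47). Between TTR-1186 and Reference 4 mt-Atp6 differed by -0.84 (adjusted p = 0.199 by limma), and DESeq2 called it. At an unadjusted p under 0.05 the interactions held 4 members for TTR-1236 less Reference 4, 3 for TTR-1186 less Reference 4 and 1 for TTR-1236 less TTR-1186.

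Across the 21 libraries the members fell along a range rather than into an mRNA and an rRNA block. The r values that follow are Pearson's, on log2(CPM + 1), given as a description over libraries in which both genes share the library, its depth and the CPM total, with the value for deviations from the group means second. mt-Rnr1 and mt-Rnr2 had r of 0.971 and 0.956. mt-Nd2 went with the rRNAs, at 0.779 and 0.808 with mt-Rnr1 and 0.702 and 0.703 with mt-Rnr2. So did mt-Nd5, a complex I mRNA outside the list that was picked after its values were seen, at 0.916 and 0.822 with mt-Rnr1. At the other end mt-Cytb and mt-Atp6 had r of 0.904 and 0.820 with each other. Against mt-Rnr2 mt-Cytb stood at -0.21 and 0.411 and mt-Atp6 at -0.29 and 0.395, so the sign of these values differed between and within groups. mt-Co2 went with mt-Rnr2 within groups, at 0.708, beside 0.263 over all libraries. Over all libraries mt-Co1 had r of 0.0142 with mt-Rnr2 and mt-Co3 0.476.

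**Figure D4:**
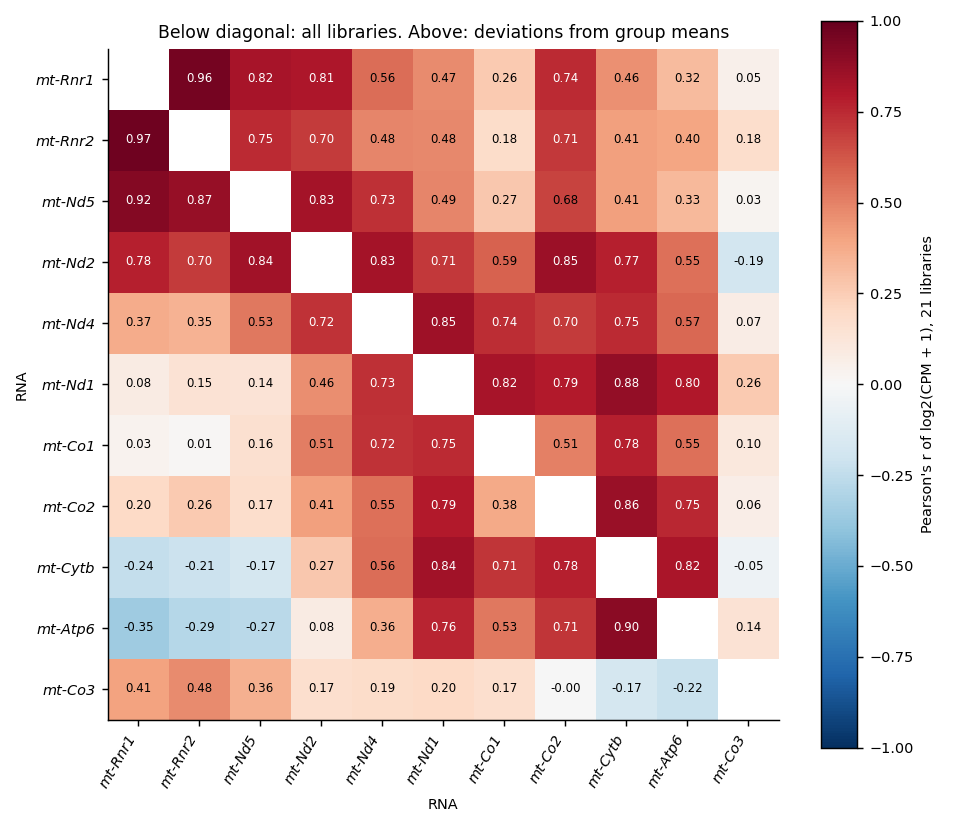
Pearson's r of log2(CPM + 1) between the 10 RNAs and mt-Nd5 over 21 libraries, all libraries below the diagonal and deviations from group means above it. mt-Rnr1, mt-Rnr2, mt-Nd5 and mt-Nd2 form the upper left corner, and mt-Cytb and mt-Atp6 have r below 0 with both rRNAs over all libraries.

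The nuclear protein-coding genes most like mt-Rnr2, among 6464 with a mean of at least 10 CPM and leaving out predicted genes, were Mup6 (r = 0.975), Golga4 (0.973), Tpr (0.971), Cep83 (0.965) and Eif3a (0.962). Mup6 encodes a major urinary protein, Golga4 a golgin of the trans-Golgi, Tpr a nuclear pore component, Cep83 a centriole appendage protein and Eif3a a subunit of a translation initiation factor. These genes had r within groups of 0.888 to 0.963, so the same libraries that were low in the rRNA were low in them within a group. Eif3a, for example, ranged from 104 to 576 CPM. Those most like mt-Co1 had lower values, with Chmp2a (0.662), Bex3 (0.649), Lgals9 (0.647), Il6st (0.631) and Lrrc3 (0.630). The rRNA share had r of 0.939 with Apob, the gene of apolipoprotein B with a very long mRNA (0.904 within groups), and of -0.39 with the total reads of a library (-0.16 within groups). Apob was chosen outside the rule for likeness, with earlier results of these data known. The part of RNA quality, transcript length or depth in the rRNA values was not tested.

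For several mRNAs the reads were counted at nuclear copies as well. Nuclear genomes hold insertions of mitochondrial DNA, and chromosome 1 of the mouse carries one that is nearly identical to the mitochondrial genome. Copies annotated there, on the minus strand, had their last 30 bases unchanged in the mitochondrial genes, and 3 of them are shown.
Gm28661, chr1:24614885-24614914, same as mt-Co2 chrM:7664-7693: tatttcgaaaactgatctgcttcaataatt
Gm10925, chr1:24613974-24614003, same as mt-Atp6 chrM:8575-8604: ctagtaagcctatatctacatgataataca
Gm28437, chr1:24613189-24613218, same as mt-Co3 chrM:9360-9389: ctatacgtctccatttattgatgaggatct
In GRCm38 Gm28661 matches mt-Co2, Gm10925 matches mt-Atp6 and Gm28437 matches mt-Co3 with 100% identity over 681, 678 and 783 bases. Each copy was listed at almost the same CPM as its mitochondrial gene in every library. The ratio of copy to gene was 0.990 to 0.999 for mt-Co2, 0.979 to 0.997 for mt-Atp6 and 0.997 to 1.0 for mt-Co3. Reads of such a pair cannot be told apart by sequence, so the levels of these 3 mRNAs are uncertain as to source.

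The other copies followed their genes less closely. Gm29216 on chromosome 1, 99.8% identical to the 483 bases at the 3′ end of mt-Co1, had a median ratio of 0.844 (0.791 to 0.909). Its last 30 bases are those printed above for mt-Co1, chrM:6843-6872, so the level of mt-Co1 is uncertain as to source too. Gm13340 on chromosome 2, 97.6% identical over the whole of mt-Co1, had 0.394. Gm28439 matches 876 bases of mt-Nd4 from its start but not its 3′ end, and had a median ratio of 0.126 (0.048 to 0.193). With Reference 4 the ratio of Gm28439 was 0.179, 0.127 and 0.129 at 0.2 µM and 0.094, 0.089 and 0.069 at 2 µM. The doses of TTR-1236 also lay apart in this ratio, and those of TTR-1186 overlapped. For mt-Nd2 the copy Gm13339 had a median ratio of 0.0800. No copy of at least 90% identity over 100 bases was among the measured genes for mt-Rnr1, mt-Rnr2, mt-Nd1 or mt-Cytb. All measured copies together took 1.17% to 1.96% of CPM. Leaving them out of the library totals kept the 4 calls of Reference 4 between doses, with 0.79 for mt-Atp6 and -2.01 for mt-Rnr1.

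**Figure D5:**
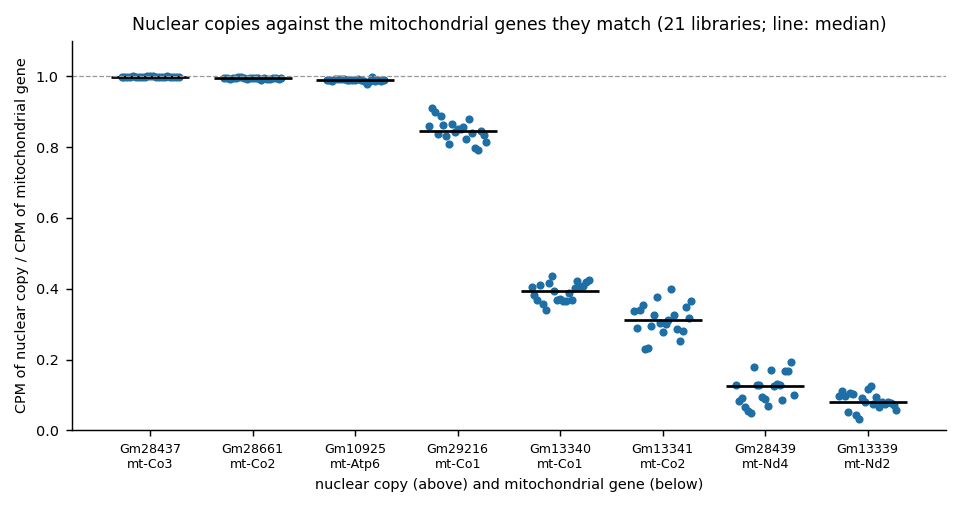
Ratio of the CPM of a nuclear copy to the CPM of the mitochondrial gene it matches, for 8 pairs, with 1 point per library and a line at the median. The first 3 pairs, for mt-Co3, mt-Co2 and mt-Atp6, sit at 0.979 to 1.0 in all 21 libraries.

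The end of mt-Co1 has a further neighbour. mt-Ts1, a serine tRNA on the minus strand at chrM:6870-6938, overlaps the last bases of mt-Co1, and was listed at 3610 to 11558 CPM. No strand setting is given in the sources used here, so reads of the antisense pair cannot be told apart. mt-Ts1 and mt-Co1 had r of 0.834 over all libraries and 0.603 within groups. With its reads added to mt-Co1, the difference of TTR-1236 at 0.2 µM from PBS was 0.93, beside 0.82 for mt-Co1 alone.

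Of the other mitochondrially encoded genes, some listed as tRNAs were called. Those named here span 66 to 75 bases, and mt-Tq, mt-Tc and mt-Ty lie on the minus strand, with no strand setting given. Whether their reads came from the tRNA or from an adjoining or opposite RNA was not tested. mt-Tl1, a leucine tRNA that lies directly after mt-Rnr2 at chrM:2676-2750, was at 206, 212 and 127 CPM with PBS and at 89.3, 109 and 47.8 CPM with TTR-1236 at 2 µM. It fell by 1.18 on the log2 scale (SE 0.28, adjusted p = 0.0177 by limma) and, between the doses of TTR-1236, fell by 1.40 (adjusted p = 0.0470). Its r with mt-Rnr2 was 0.790 over all libraries and 0.803 within groups. mt-Tq, a glutamine tRNA, fell by 0.79 with TTR-1236 at 2 µM against PBS (adjusted p = 0.0266 by limma). These were 2 called genes among 21 measured tRNAs, in a comparison where 6.33% of all genes were called. The comparison of TTR-1236 with TTR-1186 at 2 µM called 3 of the 21, where 0.342% of all genes were called: mt-Tq differed by -1.08 (adjusted p = 0.0157 by limma), mt-Tc, a cysteine tRNA named after its values were seen, by -0.95 (adjusted p = 0.0329), and mt-Ty stood at a mean of 91.6 against 185 CPM (adjusted p = 0.0121). mt-Ty, a tyrosine tRNA beside mt-Co1, rose by 0.97 with TTR-1186 at 2 µM against PBS (SE 0.18, adjusted p = 0.0359 by limma), from 92.2 ± 11.9 to 185 ± 43.8 CPM (SD, n = 3). Between the doses of Reference 4 the complex I mRNAs outside the list split, and they are named after their values were seen. mt-Nd5 fell by 0.96 (SE 0.30, adjusted p = 0.0419 by limma) and mt-Nd3 rose by 0.73 (SE 0.17, adjusted p = 0.00848 by limma). The mt-Nd3 copy Gm28438, 99.7% identical, was listed at 0.984 to 1.01 times the CPM of mt-Nd3. For mt-Nd5 the copy Gm4076, 95.2% identical over 954 bases, was at 0.065 to 0.541 times its CPM, and Gm11407 at 0.010 to 0.038 times. Gm4076 was at 451, 299 and 688 CPM with Reference 4 at 0.2 µM and at 135, 82.4 and 34.4 CPM at 2 µM. mt-Nd5 was at 1028, 747 and 1272 CPM at 0.2 µM and at 621, 496 and 432 CPM at 2 µM, lower in each, as were the rRNAs.

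Nuclear genes that make or handle these RNAs were counted from lists. Of 8 measured genes of mitochondrial transcription and replication, Tfb2m, a factor that opens the promoter for the mitochondrial RNA polymerase, fell by 1.77 with TTR-1236 at 2 µM against PBS (SE 0.47, adjusted p = 0.0286 by limma), from 20.6 ± 4.01 to 5.95 ± 3.51 CPM (SD, n = 3). In that comparison 6.33% of all genes were called, 4.89% lower. The part of Tfb2m in the rRNA levels was not tested. No other gene of that list was called against PBS at 2 µM with any agent. Of 18 measured genes of mitochondrial RNA processing and turnover 0 were called by limma in the comparisons with PBS at 2 µM and between doses, and Rexo2, an RNA exonuclease, was at 279 ± 16.0 CPM with PBS and at 254 ± 30.7 CPM with Reference 4 at 2 µM. Tbrg4, an RNA-binding protein of the same list, was at 131 ± 16.9 and 109 ± 7.65 CPM. Of 11 genes of mitochondrial rRNA modification and ribosome assembly 0 were called there too, and Nsun4, which methylates the small rRNA, was at 32.1 ± 12.5 CPM with PBS and 24.1 ± 7.09 CPM with Reference 4 at 2 µM, and Malsu1, an assembly factor, at 35.3 ± 5.04 and 41.0 ± 3.11 CPM.

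Of 15 measured genes that stand for mitochondrial mass, 5 rose and 0 fell between the doses of Reference 4, where 6.78% of all genes rose. The list median was 0.22 beside 0.03 over all genes, and 4 of the 15 had a difference below 0. Phb2, a prohibitin of the inner membrane, rose by 0.88 there (SE 0.15, adjusted p = 0.00224 by limma) and by 0.57 against PBS at 2 µM (adjusted p = 0.0472). The others, named after their values were seen, were Slc25a5, an ADP/ATP carrier, at 1.87, the import channel subunit Timm23 at 0.87, and the outer membrane channels Vdac1 at 0.68 and Vdac2 at 0.59. Among the 12 measured hepatocyte genes 6 rose and 0 fell in the same comparison, 3 had a difference below 0, and 1 of 2 measured stellate cell and fibroblast genes fell. The part of these genes in the rise of mt-Atp6 and mt-Cytb was not tested.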

How the data were processed

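RNA of 21 libraries was measured by QuantSeq 3′ sequencing. Per the submitters' processing notes the authors used cutadapt 1.15, HISAT2 2.1.0 and featureCounts with mm10, with no role, order or strand setting stated there. The authors deposited CPM per gene, which sums to 1000000 in each library. All CPM values were whole multiples of 1 read within 0.001 reads (100%), which gave back the reads and the depth of each library, 14158740 to 37410773. Gene identifiers were matched to GENCODE M21 symbols (9651 of 9657).

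Groups came from the labels. limma 3.58.1 (R 4.3.3, trend and robust) was fitted on log2(CPM + 1) of all 9657 genes with 7 group means and no filter, with Benjamini-Hochberg adjustment over all genes and a threshold of 0.05. Intervals are 95%. Every treated group was compared with PBS, and further comparisons were agents at equal dose, doses within an agent, the mean of treated groups against PBS and, added later, interactions of dose and agent. Alternatives were edgeR 4.0.16 and DESeq2 1.42.0 on the recovered reads, other scalings, a pseudocount of 0.5 or 5, genes of at least 10 CPM on average, only the libraries compared, a replicate block and libraries left out. Leaving nuclear copies out of the totals and adding mt-Ts1 to mt-Co1 were chosen after seeing the data. The fit was tested on simulated counts for the doses of Reference 4, where, with 9657 genes, limma found 61% of genes with a 2-fold change and 100% of genes with a 4-fold change, and called 6 unchanged genes. The simulated dispersion was 0.05 for every gene, so these shares do not describe the rRNAs, whose SD within groups was 0.784 and 0.721 on the log2 scale.

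All 10 members are named. Other mitochondrial and listed nuclear genes are named where called against PBS, at most 4 a list by smallest p, or else the 2 of a list with the highest mean CPM. For likeness the 5 highest r were taken. The members, lists and tests were chosen with earlier results of these data known.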

Additional observations from a re-analysis of the deposited data

How the results depend on the processing

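Counts of members called moved with the tool and the libraries. The shares of all genes called given above are those of limma on all 21 libraries, so they are no background for the counts of other fits. TTR-1236 at 2 µM against PBS gave 1 member in limma, 2 with edgeR under TMM or DESeq2 factors, 2 with DESeq2, 0 on only the libraries compared, and 2 without PBS replicate 3 and TTR-1186 2 µM replicate 2. Reference 4 at 2 µM against PBS gave 0, and 1 or 2 with edgeR, 4 with DESeq2, 2 on TMM-scaled CPM and 2 without that pair of libraries. That pair is the one described above as low in the rRNAs, so counts without it are no separate evidence on the rRNAs. TTR-1186 0.2 µM replicate 2, also the lowest of its group in both rRNAs, was kept in these fits. TTR-1236 against Reference 4 at 0.2 µM gave 0, and 3 with DESeq2 and 5 on only the libraries compared. TTR-1236 against TTR-1186 at 2 µM gave 0, and 2 with DESeq2 and 2 without the pair. TTR-1236 between doses gave 0, and 1 with DESeq2, 2 on only the libraries compared and 1 without the pair. DESeq2 gave 1 for TTR-1236 at 0.2 µM against PBS, and 2 and 1 for the interactions of TTR-1236 and of TTR-1186 with Reference 4. The cause was not tested.

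With 1 library left out, counts ranged from 0 to 2 for TTR-1236 and for Reference 4 at 2 µM against PBS, 0 to 1 for TTR-1236 against Reference 4 at 0.2 µM and against TTR-1186 at 2 µM, 1 to 4 for Reference 4 between doses and 0 to 3 for the interaction of TTR-1236 and Reference 4. The others stayed at 0. Values that changed sign were those of TTR-1186 at 2 µM against PBS, mt-Rnr1 at 0.13 and mt-Rnr2 at 0.12 without TTR-1186 2 µM replicate 2, and mt-Rnr1 at 0.08 without PBS replicate 1. With 1 library left out they ranged from -1.15 to 0.13 and from -1.08 to 0.12, lowest without PBS replicate 3. Of 700 values of named results under alternatives, 633 kept direction and side of the threshold. No scaling moved the median of all genes by more than 0.0995.

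Whether replicate numbers pair the samples is not in the labels. For deviations from group means, same-numbered libraries of different groups had r of -0.39 to 0.289, with 18 of 63 pairs over 0.1. Libraries of unlike number had r of -0.37 to 0.511, with 35 of 126 pairs over 0.1. Over all genes and groups the numbers thus gave no sign of pairing. In both rRNAs TTR-1186 replicate 2 was the lowest at both doses, and Reference 4 fell from replicate 1 to replicate 3 at both doses. With TTR-1236 the lowest replicate differed between the doses. A pairing within single agents was not tested. With a replicate block 1 member was called for TTR-1236 at 2 µM against PBS and 4 for Reference 4 between doses. With 3 libraries a group the rRNAs had standard errors of 0.62 and 0.57 on the log2 scale, which limits what could be detected for them.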
